A study of Mus musculus with 4 samples.

Results

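The genes described here are 7 that bind metal, store iron or remove peroxides: the metallothioneins Mt1 and Mt2, the ferritin subunits Ftl1 and Fth1, and the glutathione peroxidases Gpx1, Gpx3 and Gpx4. They were chosen by symbol from the 25636 genes in the count matrices, with their levels in these libraries already known, so their values are given as a description with no test. All 7 were found, and all 7 had at least 50 UMIs (unique molecular identifiers, each standing for 1 captured RNA molecule) over the 4 libraries in proximal tubule nuclei.

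Metallothioneins are small cysteine-rich proteins that bind zinc, copper and cadmium, and their genes are switched on by metals, through the zinc-sensing factor MTF1, and by glucocorticoids. Ferritin is a shell of heavy and light subunits that stores iron. The heavy subunit oxidises the iron, and the translation of both subunits is set by iron through iron regulatory proteins. Glutathione peroxidases reduce peroxides with glutathione. Gpx1 acts in the cytosol, Gpx4 removes lipid peroxides and so protects cells from ferroptosis, and Gpx3 is secreted into plasma, for which the proximal tubule of the kidney is the main source.

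Nuclei were taken from the renal cortex of female mice and profiled by droplet-based 3' RNA sequencing. The MRL/lpr groups, aged 10 and 6 weeks, have the lpr mutation in Fas, the gene of a death receptor, and are used as a model of lupus nephritis. C57BL/6 groups of both ages were the comparison. The study's title names macrophages, mesangial cells and kidney injury in lupus nephritis as its subject. Each of the 4 groups is 1 library, the number of mice behind a library is not given in the sources used here, and MRL mice with intact Fas were not among the groups, so that the Fas mutation, other strain differences and disease cannot be told apart.

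The libraries held 9365 to 10182 barcodes and 6466973 to 7660682 UMIs, and pairs of libraries shared 112 to 143 barcodes, at most 1.45% of the smaller library. After filtering 35739 nuclei remained, with medians of 561 to 693 UMIs. Each nucleus was placed in 1 of 11 classes by raw UMIs of marker genes, which held neither the members nor Slc34a1, and 13.8% of the nuclei fitted none. Described here are 10 of the classes, and the 59 nuclei placed by T cell markers are not. The 10 classes were led by genes of their own kind, such as Acsm1, Cubn and Lrp2 in proximal tubule and Slc12a1, Egf and Umod in thick ascending limb. Of fibroblast and mural nuclei 50.9% and 46.2% lay near the limit of the rule, against 16.8% of proximal tubule nuclei. Because there was 1 library per group, no test between groups was possible: values are CPM (UMIs per 1000000 UMIs of a class in a library), and 95% intervals cover counting error only.

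Mt1 and Mt2 lie side by side on mouse chromosome 8, and their promoters are shown because this pair had the widest strain ratios of the 7. The sequences, from RefSeq on GRCm38.p6, run 5' to 3' on the plus strand and cover the 250 bases before the gene start, at chr8:94178839-94179088 for Mt1 and chr8:94172368-94172617 for Mt2, followed by 30 bases just after it, at chr8:94179090-94179119 for Mt1 and chr8:94172621-94172650 for Mt2. Capitals mark matches to TGCACNC or TGCGCNC on either strand, the core of the metal response element that MTF1 binds.
Mt1 before the start: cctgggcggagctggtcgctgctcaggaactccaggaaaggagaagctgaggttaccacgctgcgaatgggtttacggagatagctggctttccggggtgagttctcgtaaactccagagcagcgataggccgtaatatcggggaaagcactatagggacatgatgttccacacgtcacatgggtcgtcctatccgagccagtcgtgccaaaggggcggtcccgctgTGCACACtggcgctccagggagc
Mt1 after the start: cTGCACTCcgcccgaaaagTGCGCTCggct
Mt2 before the start: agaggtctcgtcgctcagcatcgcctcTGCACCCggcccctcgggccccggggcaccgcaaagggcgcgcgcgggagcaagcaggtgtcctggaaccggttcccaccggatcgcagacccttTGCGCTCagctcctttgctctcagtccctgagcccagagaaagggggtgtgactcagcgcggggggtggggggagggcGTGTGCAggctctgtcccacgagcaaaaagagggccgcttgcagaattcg
Mt2 after the start: cGTGCGCAggcccaggggcgtgtgctggcc
In the window of 300 bases around the start, Mt1 held 3 matches and Mt2 held 4, while the windows of the other 5 members held 0. At least 3 matches occurred in 1.97% of the 32851 RefSeq windows and at least 4 in 0.517%. The starts are those annotated in RefSeq. Where transcription begins in these nuclei was not tested, and matches outside the window were not counted. A match of letters is a description of the sequence, and no match says nothing about the factor.

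Proximal tubule nuclei had plentiful metallothionein RNA in 3 libraries and little in the fourth, that of C57BL/6 at 10 weeks. Mt1 was at 586 CPM (2162 UMIs) in MRL/lpr and 44.1 CPM (141 UMIs) in C57BL/6 at 10 weeks, and at 781 CPM (3168 UMIs) in MRL/lpr and 616 CPM (1950 UMIs) in C57BL/6 at 6 weeks. Mt2 was at 187 CPM (689 UMIs) in MRL/lpr and 5.63 CPM (18 UMIs) in C57BL/6 at 10 weeks, and at 251 CPM (1016 UMIs) in MRL/lpr and 180 CPM (570 UMIs) in C57BL/6 at 6 weeks. The C57BL/6 library at 10 weeks was therefore low for both genes, and the other 3 libraries lay close together. The ratio of MRL/lpr over C57BL/6 at 10 weeks was 13.3 (11.2 to 15.9) for Mt1 and 33.2 (20.9 to 56.4) for Mt2, against 1.27 (1.2 to 1.34) and 1.39 (1.25 to 1.54) at 6 weeks. Between ages the ratio of 10 over 6 weeks in C57BL/6 was 0.0715 (0.0599 to 0.0849) for Mt1 and 0.0312 (0.0184 to 0.0498) for Mt2. In MRL/lpr it was 0.75 and 0.746, values that turned above 1 when scaled per ribosomal protein UMI. The 10-week strain ratio and the C57BL/6 age ratio share the C57BL/6 library of 10 weeks, so both rest on that 1 library.

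Mt1 was low in C57BL/6 at 10 weeks in nuclei with and without an early-segment marker. The 2162 Mt1 UMIs of MRL/lpr at 10 weeks lay in 1307 nuclei with up to 13 in 1 nucleus, and the 141 UMIs of C57BL/6 at 10 weeks lay in 133 nuclei with at most 2 in any nucleus. Slc5a2, the glucose transporter of the early proximal tubule, was used to divide the class. Mt1 at 10 weeks was at 630 CPM in MRL/lpr and 48.8 CPM in C57BL/6 in nuclei with an Slc5a2 UMI, and at 553 CPM in MRL/lpr and 40.1 CPM in C57BL/6 in nuclei with none. At 6 weeks the nuclei with none were lower in C57BL/6, with 744 CPM of Mt1 in MRL/lpr and 426 CPM in C57BL/6, against 825 CPM in MRL/lpr and 755 CPM in C57BL/6 in nuclei with an Slc5a2 UMI.

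**Figure D1:**
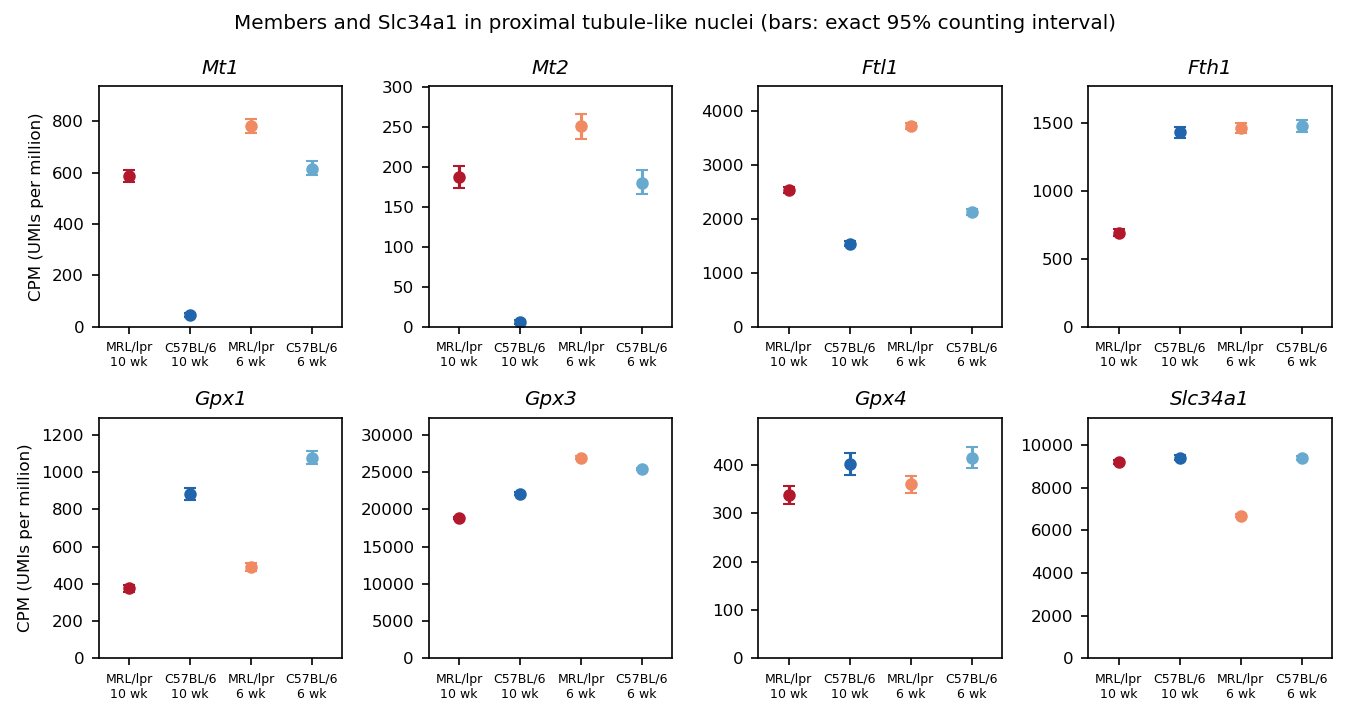
Level of each member and of Slc34a1 in proximal tubule nuclei, in CPM from 0, with 1 point per library and bars for the exact 95% counting interval. Mt1 and Mt2 are near 0 in C57BL/6 at 10 weeks (44.1 and 5.63 CPM), Fth1 is lowest in MRL/lpr at 10 weeks (693 CPM), and both MRL/lpr libraries lie below both C57BL/6 libraries for Gpx1.

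The ferritin light chain Ftl1 was higher in MRL/lpr proximal tubule nuclei at both ages. It was at 2540 CPM in MRL/lpr and 1544 CPM in C57BL/6 at 10 weeks, and at 3728 CPM in MRL/lpr and 2134 CPM in C57BL/6 at 6 weeks, so that both MRL/lpr libraries lay above both C57BL/6 libraries. The ratios were 1.64 (1.59 to 1.7) at 10 weeks and 1.75 (1.7 to 1.8) at 6 weeks. Of the 11712 genes compared in the class, 32.8% lay above C57BL/6 at both ages, and the share without overlap of the strains was not counted. The annotated near copy Ftl1-ps1, which may share reads with Ftl1, had 253 UMIs in MRL/lpr and 102 in C57BL/6 at 10 weeks, and 305 in MRL/lpr and 152 in C57BL/6 at 6 weeks, with ratios of 2.15 (1.7 to 2.74) and 1.57 (1.28 to 1.92). How reads were divided between the copies is not given in the sources used here, so the Ftl1 level is uncertain to that extent.

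The heavy chain Fth1 differed from the light chain in its pattern: 1 library stood low, that of MRL/lpr at 10 weeks. Fth1 was at 693 CPM (2556 UMIs) in MRL/lpr and 1429 CPM (4570 UMIs) in C57BL/6 at 10 weeks, and at 1459 CPM (5915 UMIs) in MRL/lpr and 1475 CPM (4668 UMIs) in C57BL/6 at 6 weeks. MRL/lpr over C57BL/6 gave a ratio of 0.485 (0.462 to 0.509) at 10 weeks, while that at 6 weeks was 0.989 (0.951 to 1.03). Ribosomal protein RNA moved with it, at 1.21% of proximal tubule UMIs in MRL/lpr and 1.72% in C57BL/6 at 10 weeks, and 2.26% in MRL/lpr and 1.92% in C57BL/6 at 6 weeks. Mitochondrial RNA did likewise, at 0.101% in MRL/lpr and 0.23% in C57BL/6 at 10 weeks. Scaled per ribosomal protein UMI, the log2 ratio of Fth1 at 10 weeks was -0.54, against -1.04 in CPM, and the part of RNA quality in the result was not tested.

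Gpx1, the cytosolic peroxidase, was at less than 1/2 of the C57BL/6 level in MRL/lpr proximal tubule nuclei at both ages. It was at 375 CPM (1384 UMIs) in MRL/lpr and 881 CPM (2818 UMIs) in C57BL/6 at 10 weeks, and at 489 CPM (1984 UMIs) in MRL/lpr and 1077 CPM (3409 UMIs) in C57BL/6 at 6 weeks. The strains did not overlap, and the share of all genes without overlap was not counted. Of the 11712 genes compared in the class, 28.1% lay below C57BL/6 at both ages. At 10 weeks the Gpx1 ratio was 0.426 (0.399 to 0.455), at 6 weeks 0.454 (0.429 to 0.48), and it lay below 1 in every alternative scaling, at its nearest to 1 with a log2 ratio of -0.73 at 10 weeks per ribosomal protein UMI. Nuclei with an Slc5a2 UMI had less Gpx1 than those without in each library, for example 323 against 415 CPM in MRL/lpr and 783 against 965 CPM in C57BL/6 at 10 weeks.

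The secreted peroxidase Gpx3 had a narrow range in proximal tubule nuclei, at 18886 CPM in MRL/lpr and 22109 CPM in C57BL/6 at 10 weeks, and at 26954 CPM in MRL/lpr and 25444 CPM in C57BL/6 at 6 weeks. MRL/lpr over C57BL/6 gave 0.854 (0.845 to 0.863) at 10 weeks, against 1.06 (1.05 to 1.07) at 6 weeks, and both values crossed 1 when scaled per ribosomal protein UMI. Gpx4 was at 338 CPM in MRL/lpr and 401 CPM in C57BL/6 at 10 weeks, and at 360 CPM in MRL/lpr and 415 CPM in C57BL/6 at 6 weeks. Its ratios were 0.842 (0.778 to 0.911) and 0.867 (0.804 to 0.934), and the 10-week ratio crossed 1 per ribosomal protein UMI. Gpx3 leaned to the early segment, with 22866 CPM in MRL/lpr and 27806 CPM in C57BL/6 in nuclei with an Slc5a2 UMI at 10 weeks, against 15849 CPM in MRL/lpr and 17225 CPM in C57BL/6 in nuclei with none.

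**Figure D2:**
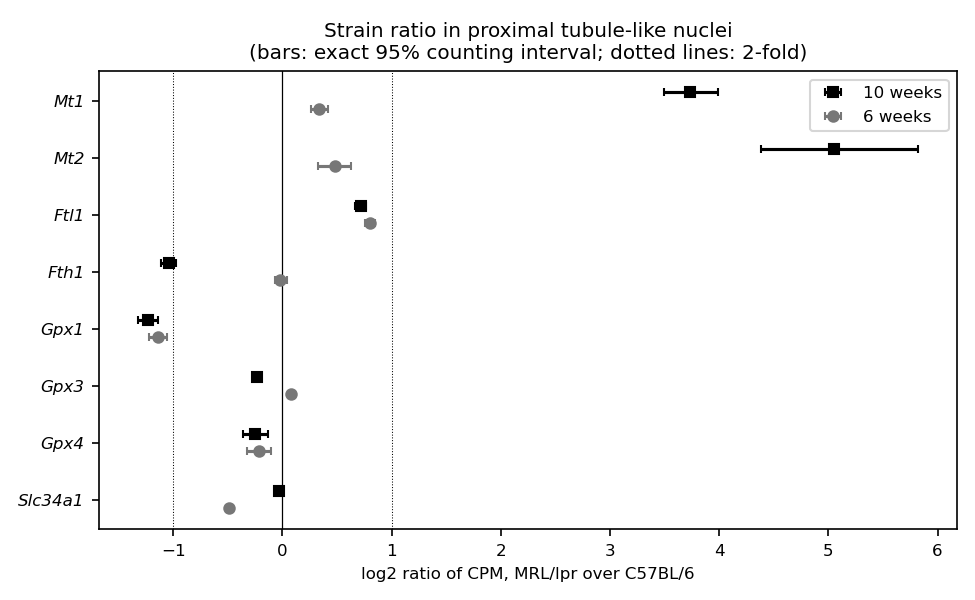
Log2 ratio of CPM in MRL/lpr over C57BL/6 in proximal tubule nuclei for each member and Slc34a1, at 10 weeks (black squares) and 6 weeks (grey circles), with exact 95% counting intervals and dotted lines at 2-fold. Mt1 (3.73) and Mt2 (5.05) at 10 weeks lie far to the right, and Gpx1 lies beyond 2-fold on the left at both ages (-1.23 and -1.14).

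Of the 7 members, 4 were at least 2-fold apart between the strains at 10 weeks (Mt1 and Mt2 higher in MRL/lpr, Fth1 and Gpx1 lower), beside 10.6% of the 11712 genes with at least 50 UMIs in the class. At 6 weeks it was 1 member, Gpx1, beside 8.74% of genes. Gpx1 was the 1 member at least 2-fold lower at both ages, beside 1.68% of genes, and none was at least 2-fold higher at both, beside 2.45%. Between 10 and 6 weeks 1 member, Fth1, was at least 2-fold lower among the MRL/lpr libraries, beside 4.73% of genes, and 2 members, Mt1 and Mt2, were in C57BL/6, beside 4.77%. The members were picked with these levels known, so nothing is read from the counts. The median log2 ratio of the members was -0.23 at 10 weeks and 0.08 at 6 weeks, against 0.07 and -0.01 over all genes, and the medians of 10 over 6 weeks were -0.42 in MRL/lpr and -0.29 in C57BL/6, against 0.03 and -0.06.

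Levels in other classes were read beside Slc34a1, the sodium phosphate cotransporter of the proximal tubule, whose RNA in another class measures free tubule RNA or mixed droplets. Slc34a1 was at 6696 to 9410 CPM in proximal tubule, 2051 to 3444 CPM in macrophage and 429 to 2141 CPM in the other classes. In endothelium, mural cells and macrophages it was highest in MRL/lpr at 6 weeks, at 2080, 2141 and 3444 CPM. For each class and library, the UMIs of a gene were divided by an expected number. Expected were the UMIs that would come with Slc34a1 at the proximal tubule ratio of the same library. Near 1 means no more than free tubule RNA at that ratio would bring. The ratio came from proximal tubule nuclei, not from empty droplets, and free RNA may hold genes in other proportions. The source of UMIs beyond the expectation was not tested. As a check, 7 enzyme genes of the proximal tubule (Miox, Fbp1, Pck1, Gatm, Ass1, Acy3 and Kap) had medians of 0.712 to 1.33 over the classes. Single values spread more widely, from 0.488 to 4.11 in thick ascending limb and up to 6.53 in fibroblast, and Kap was at least 2 in 3 of the 4 libraries in thick ascending limb, so the check is a loose one. Among the enzymes Pck1, the gluconeogenic enzyme, itself differed between the strains in proximal tubule, with ratios of 0.292 at 10 weeks and 0.498 at 6 weeks.

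Metallothionein UMIs in the distal nephron were well above this expectation in all 4 libraries, C57BL/6 at 10 weeks included. In thick ascending limb, Mt1 was at 808 CPM (198 UMIs) in MRL/lpr and 747 CPM (206 UMIs) in C57BL/6 at 10 weeks, and at 633 CPM (161 UMIs) in MRL/lpr and 751 CPM (167 UMIs) in C57BL/6 at 6 weeks. The 4 libraries thus lay close together where the proximal tubule libraries did not. There the strains had a ratio of 1.08 (0.886 to 1.32) at 10 weeks, and that of 10 over 6 weeks in C57BL/6 was 0.995 (0.807 to 1.23). Mt1 exceeded the Slc34a1 expectation by 17.4 times in MRL/lpr and 282 times in C57BL/6 at 10 weeks, and by 9.86 times in MRL/lpr and 15 times in C57BL/6 at 6 weeks. The 282-fold excess has the low proximal tubule level of that library in its denominator.

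Mt2 in thick ascending limb was at 318 CPM (78 UMIs) in MRL/lpr and 250 CPM (69 UMIs) in C57BL/6 at 10 weeks, and at 181 CPM (46 UMIs) in MRL/lpr and 234 CPM (52 UMIs) in C57BL/6 at 6 weeks. The strains had ratios of 1.27 (0.909 to 1.79) at 10 weeks and 0.774 (0.509 to 1.17) at 6 weeks, with 1 inside both intervals. In distal convoluted and connecting tubule, Mt1 was at 507 CPM in MRL/lpr and 455 CPM in C57BL/6 at 10 weeks, and at 570 CPM in MRL/lpr and 675 CPM in C57BL/6 at 6 weeks. Here C57BL/6 was lower at 10 than at 6 weeks, with a ratio of 0.674 (0.59 to 0.77) for Mt1 and 0.537 (0.406 to 0.706) for Mt2, well short of the proximal tubule ratios. Intercalated cells, which secrete acid or base, had Mt1 at 512 CPM in MRL/lpr and 333 CPM in C57BL/6 at 10 weeks, and at 443 CPM in MRL/lpr and 446 CPM in C57BL/6 at 6 weeks.

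In principal cells and endothelium the C57BL/6 library of 10 weeks was again the lowest for Mt1, as in every class but thick ascending limb and fibroblast. In podocyte, mural and macrophage this rests on few UMIs. Principal cells, the water and sodium reabsorbing cells of the collecting duct, had 182 CPM (21 UMIs) in MRL/lpr and 96.5 CPM (15 UMIs) in C57BL/6 at 10 weeks, and 324 CPM (30 UMIs) in MRL/lpr and 235 CPM (22 UMIs) in C57BL/6 at 6 weeks. Endothelium had 151 CPM (25 UMIs) in MRL/lpr and 43.8 CPM (12 UMIs) in C57BL/6 at 10 weeks, and 350 CPM (63 UMIs) in MRL/lpr and 221 CPM (86 UMIs) in C57BL/6 at 6 weeks. The endothelial ratio of 10 over 6 weeks in C57BL/6 was 0.198 (0.0986 to 0.364). Endothelial Mt1 was 1.44 times the Slc34a1 expectation in MRL/lpr at 6 weeks and 2.57 to 9.63 times in the other libraries. In principal cells Mt1 was 2.97 to 25.2 times its expectation, and both highest values were those of C57BL/6 at 10 weeks. These too have the low proximal tubule level of that library in the denominator. Endothelial Slc34a1 was at 925 CPM in MRL/lpr and 970 CPM in C57BL/6 at 10 weeks, and at 2080 and 670 CPM at 6 weeks. In principal cells Slc34a1 was, in the same order, at 960 and 817 CPM, and at 529 and 769 CPM. The part of free tubule RNA was not tested. Mt2 had 8 UMIs in MRL/lpr and 0 in C57BL/6 endothelium at 10 weeks, where a count of 0 allows up to 3 UMIs, so that Mt2 in MRL/lpr was at least 4.42-fold higher against 3 UMIs in the C57BL/6 library. That bound takes the 8 UMIs without their own counting error, and the exact interval of the ratio begins at 2.83.

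**Figure D3:**
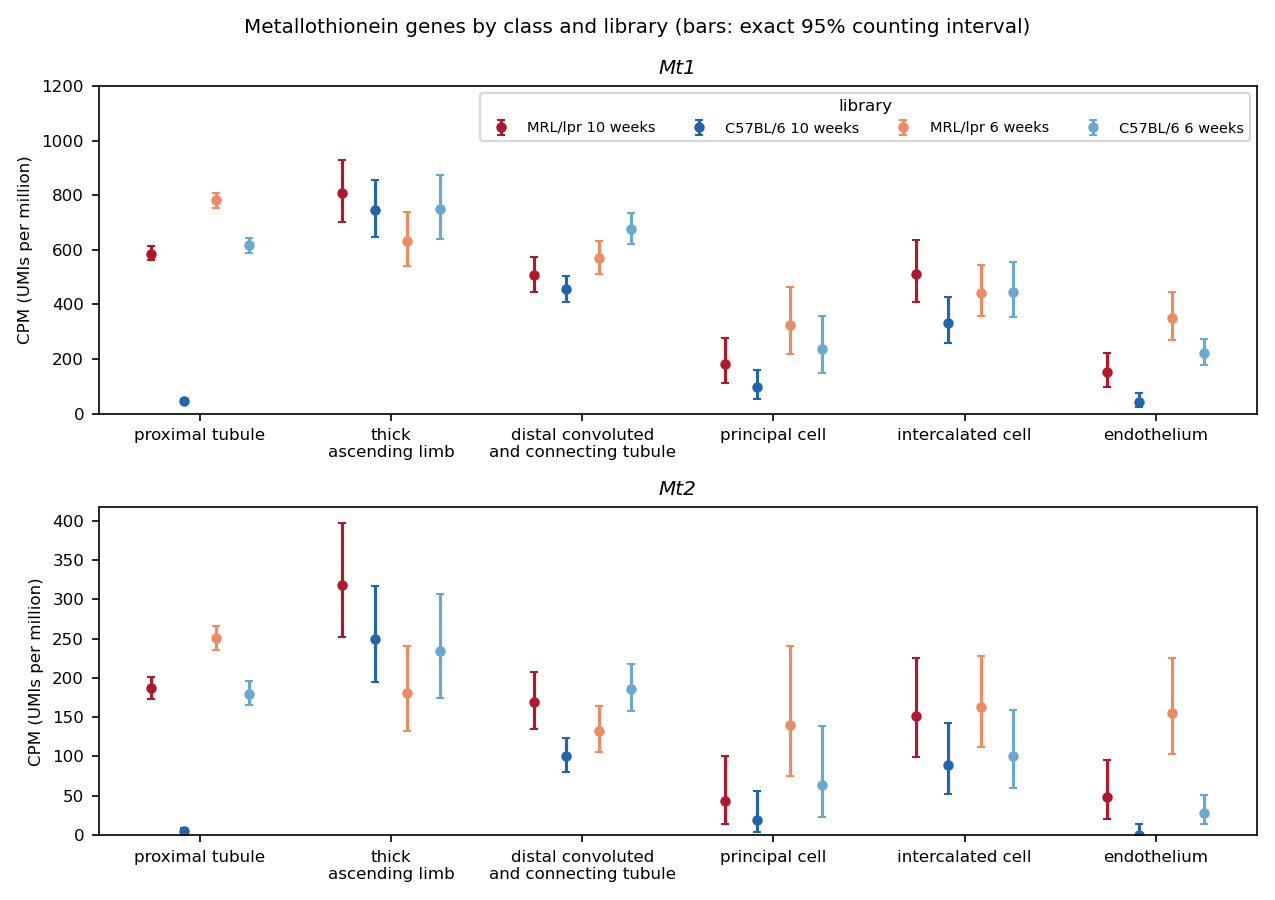
Mt1 and Mt2 in CPM from 0 by class, with 1 point per library and bars for the exact 95% counting interval. In proximal tubule the C57BL/6 library of 10 weeks is far below the other 3, at 44.1 CPM for Mt1, and in thick ascending limb it lies among them at 747 CPM.

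Over the classes, the order of Mt1 by the median of the 4 libraries was thick ascending limb (749 CPM), proximal tubule (601), distal convoluted and connecting tubule (538), intercalated cell (444), fibroblast (376), mural (316), principal cell (208), macrophage and endothelium (186 each) and podocyte (98). Mt2 began with the same 7 classes in that order too, at medians of 242, 184, 151, 126, 107, 82 and 53.6 CPM. The ranges of all 9 neighbouring pairs overlapped for Mt1, and likewise for Mt2. Podocyte, the filtering cell of the glomerulus, had 6 to 13 UMIs of Mt1 and 0 to 2 of Mt2 per library.

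Ftl1 was highest in proximal tubule (median of 2337 CPM, 1544 to 3728), followed by macrophage (1686), mural (1267), endothelium (918) and fibroblast (772), with the other tubule classes and podocyte at 565 to 738 CPM. The place of mural is uncertain. Its highest library, MRL/lpr at 10 weeks, was at 2761 CPM with 1 large barcode and at 1052 CPM without it. Fth1 followed a similar order, with proximal tubule at 1444 CPM (693 to 1475), macrophage at 1084, mural, fibroblast and endothelium at 718 to 729, and podocyte last at 428. Neighbours in both orders overlapped in all 9 pairs. Gpx1 was at 685 CPM (375 to 1077) in proximal tubule, and this range lay clear of the next class, endothelium, at 278 CPM (109 to 310). It overlapped the ranges of fibroblast (67.1 to 422 CPM) and macrophage (112 to 559 CPM). Intercalated cell was last for Gpx1 at 101 CPM. Gpx3 was at 23776 CPM (18886 to 26954) in proximal tubule, clear of macrophage at 6698 CPM (5110 to 15196) and of the other 8 classes, whose medians were 2314 to 3628 CPM. Gpx4 had the flattest order, from 380 CPM (338 to 415) in proximal tubule to 150 CPM (123 to 223) in intercalated cell, with all 9 neighbouring pairs overlapping.

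Gpx3 lay close to the Slc34a1 expectation in most classes. It was 1.2 to 1.43 times its expectation in thick ascending limb, 1.16 to 1.46 in distal convoluted and connecting tubule, 1.08 to 1.28 in principal cell, 1.14 to 1.53 in podocyte, 1 to 1.55 in endothelium, 1.01 to 1.85 in mural cells and 0.972 to 1.31 in macrophage. The counting intervals lay above 1 in all 4 libraries in thick ascending limb and in distal convoluted and connecting tubule, with lower ends of at least 1.01 and 1.04. Intercalated cells were higher, at 1.78 in MRL/lpr (1.46 to 2.18) and 2.81 in C57BL/6 (2.28 to 3.51) at 10 weeks and 1.39 in MRL/lpr (1.14 to 1.7) and 2.41 in C57BL/6 (1.95 to 3.01) at 6 weeks, and fibroblasts reached 1.52 to 2.61. These Gpx3 values lay within the spread of the 7 enzyme genes in the same classes. The enzymes had a median of 1.24 (0.508 to 3.53) in intercalated cells and 1.33 (0 to 6.53) in fibroblasts.

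The other members were at least 2 times their expectation in all 4 libraries in many classes, which most genes were. In thick ascending limb it held for 6 members, all but Gpx3, beside 98% of genes, and in principal cell for the same 6, beside 97.8%. In intercalated cell it held for 5 members, all but Gpx1 and Gpx3, beside 97.7%, and in distal convoluted and connecting tubule for 4 (Mt1, Mt2, Fth1 and Gpx4), beside 95.2%. Podocyte had 3 (Ftl1, Fth1 and Gpx4), beside 97.2%, fibroblast 4 (Mt1, Ftl1, Fth1 and Gpx4), beside 96.9%, and endothelium 1 (Gpx4), beside 83.4%. Some of these rest on few UMIs. In fibroblasts of MRL/lpr at 6 weeks Mt1 and Gpx4 had 2 UMIs each, with intervals of 0.222 to 10.7 and 0.482 to 23.3. Mt2 in principal cells of MRL/lpr at 10 weeks had 5 UMIs, with an interval of 0.707 to 5.34. Mural cells and macrophages had 0, beside 90.1% and 69.7%. Of the 7 enzyme genes 0 reached it in any class. In thick ascending limb the count fell short of 6 when doublets were kept (2) or nuclei had at least 500 genes (3).

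**Figure D4:**
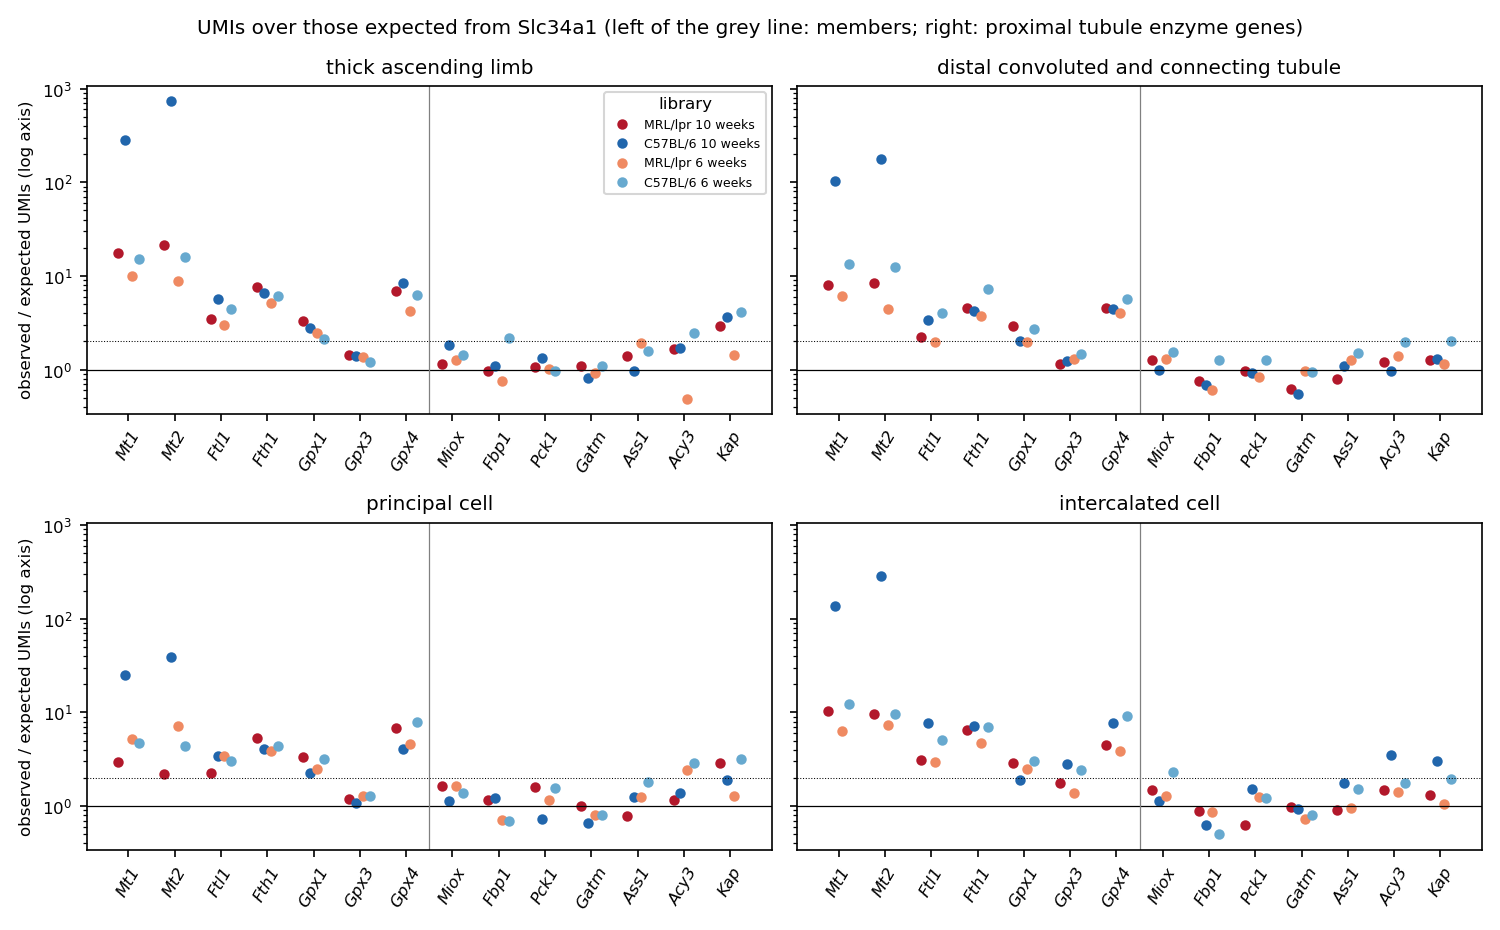
Observed over expected UMIs on a log axis, where expected means in the proximal tubule proportion to Slc34a1, for the 7 members and 7 proximal tubule enzyme genes in 4 classes, with 1 point per library. Gpx3 and most enzyme points lie near the line at 1, while the enzyme gene Kap reaches 4.11 in thick ascending limb, among the values of Ftl1 (2.98 to 5.63), and Mt1 and Mt2 of C57BL/6 at 10 weeks lie far above, up to 282 and 740 there. Those highest values have the low proximal tubule levels of that library in the denominator, and 0.0933 UMIs of Mt2 were expected.

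Across classes Ftl1 was higher in MRL/lpr in 10 of 10 classes at each age, and the interval lay above 1 in 5 at 10 weeks and in 6 at 6 weeks. Gpx1 was lower in MRL/lpr in 9 of 10 classes at 10 weeks and in 10 of 10 at 6 weeks, with the interval below 1 in 3 and in 5. In distal convoluted and connecting tubule, for example, Gpx1 was at 118 CPM (61 UMIs) in MRL/lpr and 175 CPM (145 UMIs) in C57BL/6 at 10 weeks, a ratio of 0.677 (0.494 to 0.919), and at 116 CPM (74 UMIs) in MRL/lpr and 239 CPM (199 UMIs) in C57BL/6 at 6 weeks, a ratio of 0.483 (0.365 to 0.634). Classes of a library share free RNA, so these counts are not independent. Fth1 at 10 weeks was below 1 in 7 classes, with the interval below 1 in 5, among them podocyte at 0.449 (0.243 to 0.799) and distal convoluted and connecting tubule at 0.58 (0.486 to 0.69). Ribosomal protein RNA was lower there too at 10 weeks. In podocyte it was at 0.762% in MRL/lpr and 1.33% in C57BL/6, and in distal convoluted and connecting tubule at 0.8% and 1.1%. The part of RNA quality in these classes was not tested.

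**Figure D5:**
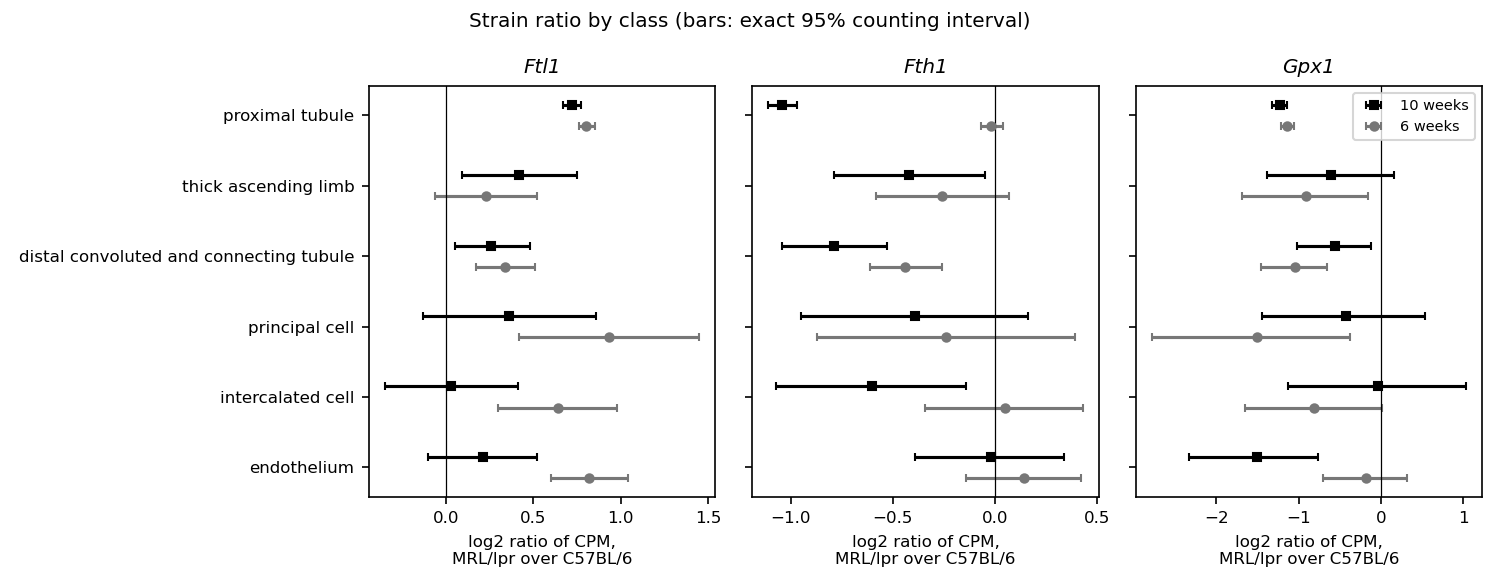
Log2 ratio of CPM in MRL/lpr over C57BL/6 for Ftl1, Fth1 and Gpx1 in 6 classes, at 10 weeks (black squares) and 6 weeks (grey circles), with exact 95% counting intervals. Ftl1 lies to the right of 0 and Gpx1 to the left in each class shown, and among the classes shown Fth1 is lowest in proximal tubule at 10 weeks (-1.04).

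Small classes had single barcodes that weigh heavily. In mural cells of MRL/lpr at 10 weeks, 1 barcode of 6878 UMIs held 45 of the 61 Ftl1 UMIs, 31 of the 42 Fth1 UMIs and 8 of the 14 Gpx4 UMIs. With it the levels were 2761 CPM of Ftl1 and 1901 CPM of Fth1, and without it 1052 and 723 CPM. Macrophages, which recycle iron from red cells, had Ftl1 at 1695 CPM (88 UMIs) in MRL/lpr and 1102 CPM (33 UMIs) in C57BL/6 at 10 weeks, and at 2283 CPM (61 UMIs) in MRL/lpr and 1678 CPM (27 UMIs) in C57BL/6 at 6 weeks. Their Ftl1 was 1.19 to 3.6 times the Slc34a1 expectation.

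The genes around the members were given by lists, in proximal tubule nuclei. Of 17 listed genes of metal transport and sensing, 14 had at least 50 UMIs, and 0 were at least 2-fold apart in 1 direction at both ages, beside 2.45% of all genes higher and 1.68% lower. Ratios of MRL/lpr over C57BL/6 were above 1 at both ages for 3 of the 14 and below 1 for 4, beside 32.8% and 28.1% of all genes. The most counted were the copper transporter Slc31a1, the copper chaperone Ccs and the copper carrier Atox1. Atox1 was at 140 CPM in MRL/lpr and 243 CPM in C57BL/6 at 10 weeks, and at 175 CPM in MRL/lpr and 269 CPM in C57BL/6 at 6 weeks. The zinc sensor Mtf1 and the zinc exporter Slc30a1, a known MTF1 target, were looked up after the metallothionein values were seen. Mtf1 had a strain ratio of 0.995 (0.749 to 1.32) and Slc30a1 of 1.19 (0.867 to 1.65) at 10 weeks, and both intervals held 1. Slc30a1 was at 25.8 CPM in MRL/lpr and 21.6 CPM in C57BL/6 at 10 weeks. For 10 over 6 weeks in C57BL/6, the comparison in which both metallothioneins were low, Slc30a1 had a ratio of 0.632 (0.46 to 0.863), with the interval below 1, and Mtf1 of 0.949 (0.709 to 1.27). In MRL/lpr the same ratio was 0.741 (0.565 to 0.968) for Slc30a1 and 0.804 (0.622 to 1.04) for Mtf1.

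Among 28 genes of iron handling, of which 22 were counted, 1 lay at least 2-fold below C57BL/6 at both ages, Trf, which encodes the iron carrier transferrin, beside 1.68% of all genes. Of the 22, 5 had a ratio above 1 at both ages and 12 below, beside 32.8% and 28.1% of all genes. Trf had 9 UMIs in MRL/lpr and 61 in C57BL/6 at 10 weeks, a ratio of 0.128 (0.0559 to 0.259), and 18 in MRL/lpr and 32 in C57BL/6 at 6 weeks, a ratio of 0.439 (0.232 to 0.806). The most counted of the list, Steap2, Bmp6 and Pcbp2, had ratios of 0.742, 0.904 and 0.843 at 10 weeks and 0.872, 1.06 and 1.04 at 6 weeks. Of the 32 genes of glutathione and NRF2, all counted, Slc7a11 was at least 2-fold higher and Txnip at least 2-fold lower at both ages, beside 2.45% and 1.68% of all genes. Of the 32, 7 were above 1 at both ages and 16 below, beside 32.8% and 28.1% of all genes. Slc7a11, the cystine importer that feeds glutathione synthesis and holds back ferroptosis, had 168 UMIs in MRL/lpr and 10 in C57BL/6 at 10 weeks, a ratio of 14.6 (7.73 to 30.9), and 185 in MRL/lpr and 4 in C57BL/6 at 6 weeks, a ratio of 36.1 (13.9 to 134). It was the 1 such gene of the 12 counted of 16 on the ferroptosis list. Of those 12, 3 were above 1 at both ages and 2 below, beside 32.8% and 28.1% of all genes. Cisd1, Lpcat3 and Slc3a2, the most counted there, had ratios of 1.14, 0.69 and 1.35 at 10 weeks and 1.09, 1.26 and 0.771 at 6 weeks. Txnip, an inhibitor of thioredoxin, was at 13.6 CPM in MRL/lpr and 44.4 CPM in C57BL/6 at 10 weeks, and at 19 CPM in MRL/lpr and 62.3 CPM in C57BL/6 at 6 weeks. The peroxiredoxin Prdx5, one of the most counted of the list, was at 249 CPM in MRL/lpr and 434 CPM in C57BL/6 at 10 weeks, and at 459 CPM in MRL/lpr and 469 CPM in C57BL/6 at 6 weeks, so that it was low in the library in which Fth1 was low. The glutathione transferase Gsta2 had ratios of 0.603 and 0.337 at 10 and 6 weeks, and Ggt1, which breaks down glutathione outside the cell, of 1.05 and 1.15.

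Gpx1, Gpx3 and Gpx4 carry selenocysteine. Of 24 other listed selenoprotein and selenium genes, 23 were counted, and 16 were above 1 at both ages and 3 below at both, beside 32.8% and 28.1% of all genes. Sepsecs, the enzyme that makes selenocysteine on its transfer RNA, was the 1 at least 2-fold lower at both ages, beside 1.68%. It was at 32 CPM (118 UMIs) in MRL/lpr and 79.1 CPM (253 UMIs) in C57BL/6 at 10 weeks, a ratio of 0.405 (0.322 to 0.505), and at 34.5 CPM (140 UMIs) in MRL/lpr and 92.3 CPM (292 UMIs) in C57BL/6 at 6 weeks, a ratio of 0.374 (0.304 to 0.459). Selenok and Eefsec, also among the most counted, had ratios of 1.02 and 1.3 at 10 weeks and 1.35 and 1.12 at 6 weeks. Lrp2, the receptor that takes up selenoprotein P, was also a marker of the class, and it is 1 of the 16, with ratios of 1.13 at 10 weeks and 1.5 at 6 weeks. Other family members were scarce in proximal tubule nuclei: Gpx2, Gpx5, Ftmt, Mt3 and Mt4 had 0 UMIs in each library, and Gpx6, Gpx7 and Gpx8 had at most 14.

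Genes whose levels were most like a member's were found by the correlation of log2(CPM + 1) over 40 sums of 10 classes in 4 libraries, among 5719 genes. These sums share libraries, depth and free tubule RNA, and the values are a description. Gpx3 was closest to Miox (r = 0.923), Fut9 (0.916) and Slc34a1 (0.908). Gpx4 was closest to Elob (0.929), Rnf181 (0.889) and the ribosomal protein gene Rpl22l1 (0.861), and among the 3 genes closest to Fth1 was the ribosomal protein gene Rpl7a (0.724). Ftl1 was closest to Gpx3 (0.813), Pter (0.812) and Prodh2 (0.769), and Gpx1 to Spink1 (0.779), Gsta2 (0.771) and Dnase1 (0.743). Mt1 had lower values, with Tln2 (0.669), Mt2 (0.65) and Ndufs3 (0.647), and Mt2 was closest to Kazn (0.806), Trp53inp2 and Cand1 (0.687 each).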

How the data were processed

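Nuclei of 4 libraries, 1 for each strain and age, were profiled per the labels' protocols with a droplet-based 3' kit primed by poly-dT. The authors deposited 1 matrix of UMI counts per library, made with Cell Ranger (5.0.0 per the file headers, 3.1.0 per the submitters' processing notes). The sources used here do not give their barcode rule, genome build or intron setting. Barcodes with fewer than 200 genes or over 10% mitochondrial UMIs, and those marked by Scrublet (scanpy 1.11.5, 0.8% per 1000 barcodes), were left out, 427 to 863 marked per library. In MRL/lpr at 6 weeks the automatic threshold marked 0, and the 701 highest scores at the expected rate were taken. A nucleus took the class with at least 2 marker UMIs and 2 times those of any other. UMIs were summed per class and library. Intervals are exact (scipy 1.17.1), conditional binomial for ratios and Poisson for CPM. A gene was compared in a class from 50 UMIs upward, summed over libraries, and classes with at least 20 nuclei per library were described. Named were the members, the 3 most counted genes of each list, those at least 2-fold apart at both ages, and the 3 most like each member. Members and lists were chosen with earlier results of these data known, and 2 genes that these rules name are not reported here. Code was tested on simulated data.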

Additional observations from a re-analysis of the deposited data

Results flagged for a closer look

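Groups of 1 library hold no outlier to look for. The results below are those in which a ratio had its interval on opposite sides of 1 in 2 classes, or at 2 ages, of the same comparison. The differences were not tested.

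Metallothionein ratios differed in direction between classes. In distal convoluted and connecting tubule the ratio of MRL/lpr over C57BL/6 at 6 weeks was 0.845 for Mt1 and 0.712 for Mt2, against 1.27 and 1.39 in proximal tubule. In thick ascending limb the ratio of 10 over 6 weeks in MRL/lpr was 1.28 for Mt1 and 1.76 for Mt2, against 0.75 and 0.746 in proximal tubule.

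In mural cells the ratio of 10 over 6 weeks in MRL/lpr was 1.56 for Ftl1 and 2.54 for Fth1, against 0.681 and 0.475 in proximal tubule. The ratio of MRL/lpr over C57BL/6 at 10 weeks was 2.93 for Fth1, against 0.485 in proximal tubule, and at least 3.58 for Gpx4 (14 UMIs in MRL/lpr, and 3 UMIs put for the 0 in C57BL/6), against 0.842. The exact interval of that Gpx4 ratio begins at 2.54. The 1 barcode of 6878 UMIs in the MRL/lpr library of 10 weeks is in each of these mural values.

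Gpx3 in proximal tubule had a strain ratio of 0.854 at 10 weeks and 1.06 at 6 weeks. In thick ascending limb its strain ratio at 10 weeks was 1.15. In endothelium its ratio of 10 over 6 weeks in C57BL/6 was 1.23, against 0.869 in proximal tubule, while endothelial Slc34a1 was at 970 CPM at 10 weeks and 670 CPM at 6 weeks.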

How the results depend on the processing

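No paired analysis was possible because each group has 1 library and the labels carry no replicate numbers; for the same reason no library could be left out. In proximal tubule, the counts of members at least 2-fold apart at 10 weeks (4) and between ages in C57BL/6 (2) stayed within 1.5 times under all alternatives run. The members counted at 10 weeks did not all stay the same. Per ribosomal protein UMI, Fth1 (log2 ratio of -0.54) and Gpx1 (-0.73) fell short of 2-fold, and Ftl1 (1.22) passed it. Mt1 and Mt2 at 10 weeks kept their direction in all 12, with log2 ratios of 3.67 to 4.24 and 4.74 to 5.56. The count at 6 weeks (1) was 2 in nuclei with no Slc5a2 UMI, a split chosen after seeing the data. The count between ages in MRL/lpr (1) was 0 per ribosomal protein UMI, which shifts all log2 ratios by -0.24 at 6 weeks, 0.50 at 10 weeks, 0.90 between ages in MRL/lpr and 0.16 in C57BL/6, and 0 in nuclei with an Slc5a2 UMI. Of members at least 2 times above the Slc34a1 expectation, thick ascending limb had 6, but 2 with doublets kept and 3 with at least 500 genes per nucleus. Distal convoluted and connecting tubule had 4, but 2 under either. Principal cell had 6, but 3 with doublets kept or with the enzyme sum in place of Slc34a1. Endothelium had 1, but 3 with a lead of 3 times over other classes, 2 with the enzyme sum and 4 in nuclei with no proximal tubule marker UMI. Fibroblast had 4, but 2 with a lead of 3 times. Mural had 0, but 2 with a lead of 3 times, 1 with doublets kept, 4 with no proximal tubule marker UMI and 3 without the barcode with most UMIs (added after seeing the data). Macrophage had 0, but 2 with no proximal tubule marker UMI. Gpx1 in thick ascending limb, lowest at 2.1 times its expectation, was at 0.975 with doublets kept and 0.511 with at least 500 genes. The causes were not tested. Classes under 20 nuclei in a library under a stricter filter, and the class of T cell markers, gave no value. Depth limits the small classes: mural, macrophage, podocyte and fibroblast sums rest on few UMIs of a member, as does Mt2 in principal cell.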

Other observations

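Nuclei that fitted no class held every member at a lower level than proximal tubule nuclei of the same library, except Mt1 and Mt2 in C57BL/6 at 10 weeks, which were higher. Mt1 there was at 471 CPM (357 UMIs) in MRL/lpr and 95.8 CPM (68 UMIs) in C57BL/6 at 10 weeks, and at 716 CPM (744 UMIs) in MRL/lpr and 560 CPM (380 UMIs) in C57BL/6 at 6 weeks. Gpx1 there was at 294 CPM in MRL/lpr and 569 CPM in C57BL/6 at 10 weeks, and at 429 CPM in MRL/lpr and 682 CPM in C57BL/6 at 6 weeks. Barcodes placed by T cell markers numbered 14 in MRL/lpr and 18 in C57BL/6 at 10 weeks, and 19 in MRL/lpr and 8 in C57BL/6 at 6 weeks. Proximal tubule genes were among their leading genes, and they were not described as a class.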
